A study of Homo sapiens with 9 samples.

Results

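The mRNAs of 10 enzymes and subunits that write, copy, remove or hold DNA methylation and Polycomb marks were followed in Huh-7 cells without vtRNA1-1 or vtRNA1-2. They were chosen by name, as candidates in the control of genes that are silent in WT cells, and are DNMT1, DNMT3A, DNMT3B, UHRF1, TET1, TET2, TET3, EZH2, EED and SUZ12. All 10 of them were found by their Ensembl identifier among the 60664 genes of the count table. Huh-7 is a human hepatocellular carcinoma line. Polyadenylated RNA was sequenced from 3 lines with 3 libraries each, namely WT cells, cells lacking vtRNA1-1 (1-1 KO) and cells lacking vtRNA1-2 (1-2 KO), all from untreated cultures at 80% confluency in DMEM/F12 with 10% heat-inactivated serum and antibiotics. The VTRNA1-1 or the VTRNA1-2 gene had been removed by CRISPR/Cas9. WT and 1-1 KO cells came from another laboratory, and the 1-2 KO line was derived from these WT cells as 1 single-cell clone. Each deletion was therefore represented by 1 line and cannot be told apart from the history of that line. The study calls the replicates biological, but whether they were separate cultures is not stated, so that p-values measure the spread between these libraries, which may be technical.

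As background, DNA methylation at CpG sites is copied onto new DNA by DNMT1, which UHRF1 brings to hemimethylated sites behind the replication fork, whereas DNMT3A and DNMT3B set new methylation. TET1, TET2 and TET3 oxidize methylated cytosine with 2-oxoglutarate as a cosubstrate and so open the way to its loss. Polycomb repressive complex 2 (PRC2) methylates lysine 27 of histone H3 through its catalytic subunit EZH2, which is active only together with EED and SUZ12. Tumour cells of the liver, as of many tissues, often express DNMT1, UHRF1 and EZH2 strongly. These genes are most active in dividing cells.

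Total counts per library were between 32384469 and 41782387, and 17207 genes passed edgeR's filter on low counts, among them all 10 genes described here. The deletions themselves were not visible in these libraries, because VTRNA1-1 had 1 count in 1 WT library and 0 in every other library and VTRNA1-2 had 0 in all 9. The hepatocyte markers ALB, AFP, APOA1, APOB, SERPINA1, TTR, FGB, HNF4A and TF were above 3 counts in every line and summed to 15010 to 15960 CPM (read counts scaled to library size) in WT, 31190 to 32130 in 1-1 KO and 21200 to 23230 in 1-2 KO. In 1-1 KO 8 of these 9 markers rose, beside 32.5% of all tested genes. In 1-2 KO 4 rose and 3 fell, beside 28.2% and 26.2%, and the 3 that fell had risen in 1-1 KO. AFP and ALB rose in both knockouts. AFP was at 1710 to 1837 CPM in WT, 8024 to 8346 in 1-1 KO and 7037 to 7649 in 1-2 KO. ALB was at 2479 to 2589, 9283 to 9707 and 4415 to 4907 CPM. A list of 10 markers of blood, endothelial and stromal cells summed to 23.8 to 25.3 CPM in WT, 22.95 to 24.1 in 1-1 KO and 28.2 to 30.0 in 1-2 KO, where 4, 3 and 2 of the markers had no more than 3 counts in any library. The tests called 2 of its 6 tested genes higher and 2 lower in 1-1 KO, beside 32.5% and 30.9% of all tested genes. In 1-2 KO they called 4 higher and 1 lower, beside 28.2% and 26.2%. PTPRC and PDGFRB were higher in both knockouts. ACTA2 was at 2.22 to 3.15 CPM in WT, 0.049 to 0.12 in 1-1 KO and 5.51 to 6.73 in 1-2 KO. PECAM1 was at 7.32 to 7.92 CPM in WT, 6.33 to 7.08 in 1-1 KO, where it was not called, and 0.69 to 0.95 in 1-2 KO. The part of these marker changes in the changes below was not tested. The library 1-2 KO replicate 1 stood apart from its mates, as the chi-square of their counts, divided by its degrees of freedom, was 15.2 and 16.1, against 2.07 to 10.4 for the other pairs of the same line. Differences of the 10 genes and of their ratios in 1-2 KO whose call or direction changed without this library, or whose size changed by over 1.5 times, are given both ways.

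For 9 of the genes, a RefSeq promoter of 300 bases, 250 before and 50 after the start site, lay at the start of the canonical transcript (GRCh38.p14), while that of DNMT3B lay 17467 bases away and was not used. E2F factors drive S-phase genes, and DNMT1, UHRF1 and EZH2 belong to dividing cells. The promoters were therefore searched on both strands for letters like the E2F binding site (TTTNNCGC, with each N a C or a G). The letters stood in 4 of the 9 promoters, against 4.27% of all 18000 promoters and 5.29% of the 11439 promoters of tested genes. The 4 sequences are shown, read along the gene, with these letters in capitals. That of DNMT1 is chr19:10194904-10195203 on the minus strand, that of UHRF1 chr19:4909251-4909550 on the plus strand, that of EZH2 chr7:148884242-148884541 on the minus strand and that of SUZ12 chr17:31936757-31937056 on the plus strand.
DNMT1: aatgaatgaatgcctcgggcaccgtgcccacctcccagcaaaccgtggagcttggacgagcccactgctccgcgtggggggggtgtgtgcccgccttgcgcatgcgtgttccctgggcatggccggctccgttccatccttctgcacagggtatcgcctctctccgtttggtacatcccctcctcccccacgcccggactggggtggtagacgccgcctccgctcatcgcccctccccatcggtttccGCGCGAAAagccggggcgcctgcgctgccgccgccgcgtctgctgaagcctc
UHRF1: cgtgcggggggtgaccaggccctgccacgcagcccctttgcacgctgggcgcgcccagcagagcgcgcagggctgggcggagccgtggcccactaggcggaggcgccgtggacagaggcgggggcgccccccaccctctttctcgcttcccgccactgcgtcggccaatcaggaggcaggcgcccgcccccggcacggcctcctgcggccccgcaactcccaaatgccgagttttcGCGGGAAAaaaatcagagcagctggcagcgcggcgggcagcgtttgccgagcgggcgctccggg
EZH2: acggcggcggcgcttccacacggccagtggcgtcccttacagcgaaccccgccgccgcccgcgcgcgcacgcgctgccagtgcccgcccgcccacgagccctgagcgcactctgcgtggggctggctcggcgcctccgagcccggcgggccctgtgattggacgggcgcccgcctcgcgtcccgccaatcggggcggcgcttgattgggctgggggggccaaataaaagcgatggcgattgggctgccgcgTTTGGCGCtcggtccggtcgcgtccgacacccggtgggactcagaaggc
SUZ12: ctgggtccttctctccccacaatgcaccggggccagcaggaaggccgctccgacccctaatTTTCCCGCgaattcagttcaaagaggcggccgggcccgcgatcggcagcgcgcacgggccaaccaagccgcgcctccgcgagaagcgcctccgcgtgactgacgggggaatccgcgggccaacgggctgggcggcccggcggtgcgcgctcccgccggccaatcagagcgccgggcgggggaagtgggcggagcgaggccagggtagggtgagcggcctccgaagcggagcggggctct
Relative to the start site, the letters began at position -2 in DNMT1, at -14 in UHRF1, at 1 in EZH2 and at -189 in SUZ12. They were on the strand opposite to the gene in DNMT1 and UHRF1 and on the gene's own strand in EZH2 and SUZ12. The promoters were also rich in CpG, the site that the enzymes of the DNMT family methylate. There were 30 CpG in that of DNMT1, 36 in UHRF1, 46 in DNMT3A, 35 in TET2, 45 in TET3, 46 in EZH2 and 40 in SUZ12, against a median of 27 over the promoters of tested genes. Only TET1 (10 CpG) and EED (16 CpG) lay below that median. A match is a description of the letters and not a bound site, and the 4 genes did not change alike, as the following values show.

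Per kilobase of the canonical transcript, DNMT1 was the most abundant of the 10 mRNAs in WT, at 35.5 ± 0.739 CPM per kb (SD, n = 3 libraries). EZH2 at 31.95 and SUZ12 at 30.6 CPM per kb came next, and their libraries overlapped (31.6 to 32.5 and 29.9 to 31.96). EED followed at 19.3 and UHRF1 at 13.5 CPM per kb. The enzymes that set or remove methylation were lower, at 5.43 for TET3, 4.92 for DNMT3A, 3.96 for DNMT3B, 2.01 for TET2 and 1.68 CPM per kb for TET1. Of these, TET3 and DNMT3A did not overlap in WT (5.35 to 5.55 and 4.72 to 5.28), nor did TET2 and TET1, whose closest libraries were at 1.85 CPM per kb. With the joined length of all exons in place of the canonical transcript, a choice made after seeing the data, SUZ12 stood first in WT at 21.0 CPM per kb and DNMT1 next at 12.2. In 1-1 KO, EZH2 lay below SUZ12 on the canonical scale (21.6 against 31.3 CPM per kb), and in 1-2 KO it lay above (37.2 against 28.7 CPM per kb). DNMT3B, which was below DNMT3A and TET3 in WT, had a higher mean than both in 1-2 KO (6.47 against 6.11 and 5.84 CPM per kb), where its libraries overlapped with those of DNMT3A (6.13 to 6.65 and 5.995 to 6.28). With joined exons it was below both in 1-2 KO as well (4.08 against 4.18 and 5.44 CPM per kb).

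The first question was which of these mRNAs differed between each knockout and WT. In 1-1 KO, 6 of the 10 were higher and 3 were lower than in WT in edgeR's quasi-likelihood test, where 32.5% of all tested genes were higher and 30.9% lower. In 1-2 KO, 6 were higher and 0 lower, where 28.2% of all tested genes were higher and 26.2% lower. At an unadjusted p under 0.05 in edgeR, 1 of the 10 (SUZ12) was lower in 1-2 KO, and DESeq2's Wald test called the same gene after adjustment. Without 1-2 KO replicate 1, 7 were higher and 0 lower. The median log2 fold change of the 10 genes was 0.28 in 1-1 KO and 0.23 in 1-2 KO, beside 0.01 and 0.02 over all tested genes. Between the knockouts, 5 of the 10 were higher and 3 lower in 1-2 KO than in 1-1 KO, where 33.1% of all tested genes were higher and 32.2% lower, and the median was 0.06. Both comparisons with WT use the same WT libraries and are not independent of each other. Most changes were small, and only TET2 in 1-1 KO (82.2) and DNMT3B in 1-2 KO (80.9) lay above the percentile 80 of all tested genes by the size of their log2 fold change.

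**Figure D1:**
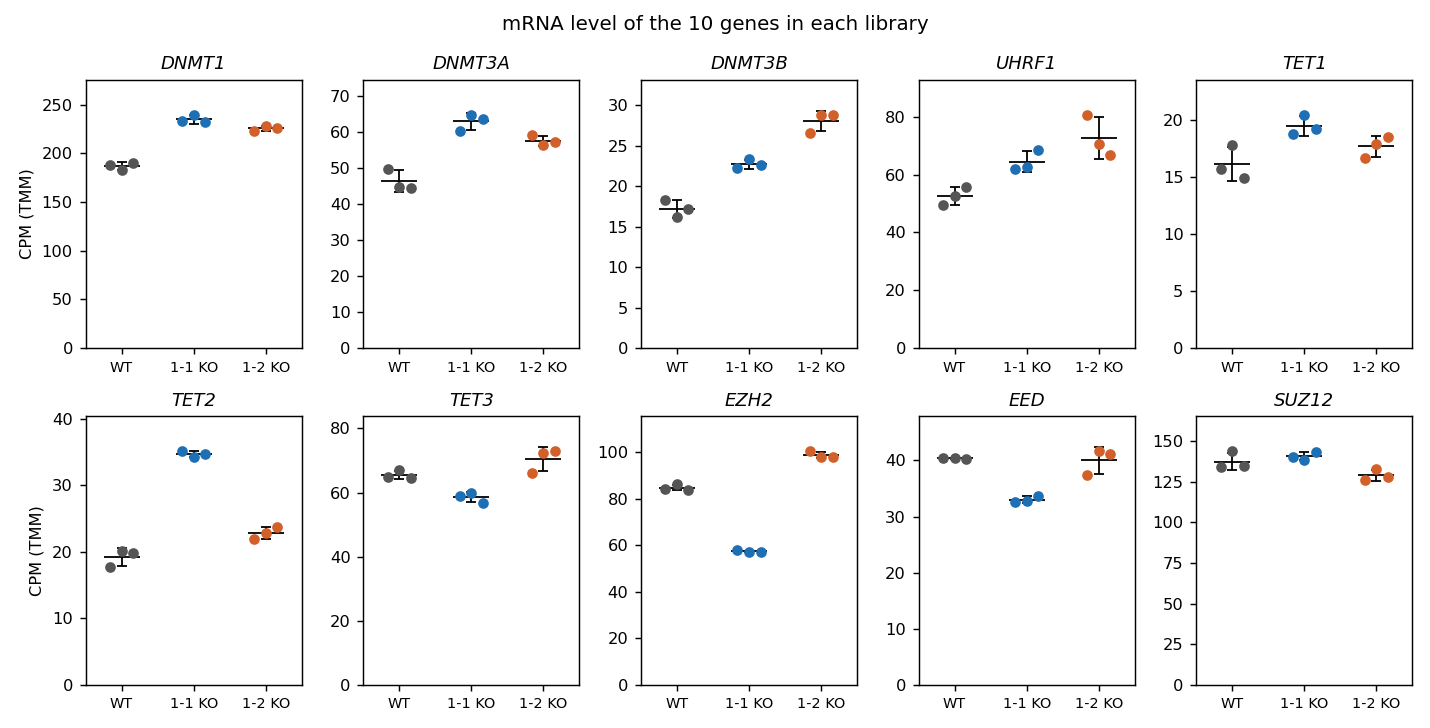
CPM (TMM-scaled, each axis from 0) of the 10 genes in the libraries of the WT line and both knockout lines, with points for libraries and bars for the mean ± SD (n = 3). EZH2 moved from 84.8 CPM in WT down to 57.3 in 1-1 KO and up to 98.7 in 1-2 KO, and TET2 was highest in 1-1 KO at 34.7 CPM.

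DNMT1 (ENSG00000130816, chromosome 19, 10133342 to 10231286, minus strand), the enzyme that copies methylation, was at 187.6, 182.8 and 190.5 CPM in the WT libraries. It was at 233.0, 239.7 and 231.9 CPM in 1-1 KO and at 222.8, 228.0 and 226.4 CPM in 1-2 KO. Every knockout library lay above every WT library. The rise was 1.26-fold in 1-1 KO (log2 fold change 0.33, adjusted p = 7.33e-07 in edgeR, standard error 0.033) and 1.21-fold in 1-2 KO (log2 fold change 0.27, adjusted p = 6.86e-06, standard error 0.033). The knockouts differed by -0.06 on the log2 scale, with a 95% interval from -0.13 to 0.01 (adjusted p = 0.136 in edgeR). Without WT replicate 3, DNMT1 was called lower in 1-2 KO than in 1-1 KO (-0.08, adjusted p = 0.0309 in edgeR). S1PR2 overlaps DNMT1 on the same strand, with 2645 counts in all libraries against 77047 for DNMT1, and how reads in the overlap were counted is not stated.

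UHRF1 (ENSG00000276043, chromosome 19, 4903080 to 4962154, plus strand), which brings DNMT1 to newly copied DNA, was at 49.6, 52.6 and 55.9 CPM in WT. It was at 62.1, 62.6 and 68.7 CPM in 1-1 KO and at 80.7, 70.6 and 66.9 CPM in 1-2 KO, so that all knockout libraries were above WT while the knockouts overlapped with each other. It rose 1.23-fold in 1-1 KO (log2 fold change 0.29, adjusted p = 0.00157 in edgeR) and 1.38-fold in 1-2 KO (0.47, adjusted p = 3.72e-05). The highest value belonged to 1-2 KO replicate 1, and without this library the log2 fold change in 1-2 KO was 0.39 (adjusted p = 3.55e-05 in edgeR). Compared directly, UHRF1 was higher in 1-2 KO than in 1-1 KO by 0.17 (adjusted p = 0.0310 in edgeR), and without that library by 0.09 (adjusted p = 0.158). The call between the knockouts was also lost without 1-1 KO replicate 1 (0.15), without 1-1 KO replicate 2 (0.15) or without WT replicate 3 (0.15), which sets part of the spread.

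The ratio of DNMT1 to UHRF1 counts within a library does not depend on the scaling between libraries. It was 3.79, 3.48 and 3.41 in WT, 3.75, 3.83 and 3.38 in 1-1 KO and 2.76, 3.23 and 3.39 in 1-2 KO. The groups of 1-1 KO and WT overlapped (log2 difference 0.04, exact two-sided permutation test p = 0.8). In 1-2 KO the ratio was lower than in every WT library, by 0.19 on the log2 scale (exact permutation p = 0.1, the smallest p that 3 against 3 libraries allow). Without 1-2 KO replicate 1 this difference was -0.10. The knockouts overlapped (log2 difference -0.23, exact permutation p = 0.2), and without that library they differed by -0.14 (exact permutation p = 0.4).

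DNMT3A (ENSG00000119772, chromosome 2, 25227855 to 25342590, minus strand), which sets new methylation in differentiated cells and early development, was at 49.8, 44.8 and 44.5 CPM in WT. It was at 60.3, 64.8 and 63.7 CPM in 1-1 KO and at 59.2, 56.5 and 57.1 CPM in 1-2 KO, above WT in every library. It rose 1.36-fold in 1-1 KO (log2 fold change 0.44, adjusted p = 2.23e-06 in edgeR, standard error 0.049) and 1.24-fold in 1-2 KO (0.31, adjusted p = 8.53e-05, standard error 0.049). It was lower in 1-2 KO than in 1-1 KO by 0.13 (adjusted p = 0.0301 in edgeR), with no overlap. That call was lost without 1-1 KO replicate 2 (-0.11), 1-1 KO replicate 3 (-0.12), 1-2 KO replicate 2 (-0.11) or 1-2 KO replicate 3 (-0.12).

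DNMT3B (ENSG00000088305, chromosome 20, 32762385 to 32809359, plus strand), the other enzyme for new methylation and typical of embryonic and tumour cells, was at 18.3, 16.1 and 17.1 CPM in WT. It was at 22.3, 23.3 and 22.6 CPM in 1-1 KO and at 26.6, 28.8 and 28.8 CPM in 1-2 KO. The 3 lines formed separate steps with no overlap, WT lowest and 1-2 KO highest. The rise was 1.32-fold in 1-1 KO (log2 fold change 0.40, adjusted p = 4.07e-05 in edgeR, standard error 0.060) and 1.63-fold in 1-2 KO (0.71, adjusted p = 1.84e-07, standard error 0.059). The direct difference between the knockouts was 0.30 (adjusted p = 3.30e-04 in edgeR, standard error 0.058). Without 1-2 KO replicate 1, the lowest library of its line, the rise in 1-2 KO was 0.75 (adjusted p = 5.08e-08 in edgeR).

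The balance of these enzymes was read within each library. The ratio of DNMT3A to DNMT3B counts was 2.73, 2.78 and 2.60 in WT and 2.71, 2.78 and 2.82 in 1-1 KO. In 1-2 KO it was 2.23, 1.96 and 1.98, below every library of the other lines. The log2 difference was 0.04 between 1-1 KO and WT (exact permutation p = 0.4), -0.39 between 1-2 KO and WT and -0.43 between the knockouts (exact permutation p = 0.1 for both, the smallest possible). Without 1-2 KO replicate 1 the latter differences were -0.45 and -0.49. As 9 ratio differences were compared and the exact permutation test cannot go below p = 0.1, none could pass an adjustment.

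Among the enzymes that remove methylation, TET2 (ENSG00000168769, chromosome 4, 105145875 to 105279816, plus strand) changed most. It was at 17.8, 20.2 and 19.8 CPM in WT, at 35.1, 34.3 and 34.7 CPM in 1-1 KO and at 22.01, 22.8 and 23.7 CPM in 1-2 KO. All 1-1 KO libraries were far above the others, and the 1-2 KO libraries lay just above WT. It rose by a log2 fold change of 0.85 in 1-1 KO (1.81-fold, adjusted p = 1.21e-08 in edgeR, standard error 0.057) and by 0.25 in 1-2 KO (1.19-fold, adjusted p = 0.00217). The knockouts differed by -0.60 (adjusted p = 2.89e-07 in edgeR, standard error 0.055).

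TET1 (ENSG00000138336, chromosome 10, 68560337 to 68694487, plus strand), the member of the family best known from embryonic stem cells, was the lowest per kilobase of canonical transcript, while with joined exons TET2 was lowest in WT (1.17 against 1.68 CPM per kb) and in 1-2 KO (1.39 against 1.84 CPM per kb). TET1 was at 15.7, 17.8 and 14.96 CPM in WT, at 18.8, 20.5 and 19.2 CPM in 1-1 KO and at 16.7, 17.9 and 18.5 CPM in 1-2 KO. The 1-1 KO libraries were above WT and the 1-2 KO libraries overlapped with WT. The log2 fold change was 0.27 in 1-1 KO (adjusted p = 0.00456 in edgeR) and 0.13 in 1-2 KO, with a 95% interval from -0.03 to 0.28 (adjusted p = 0.144). Without WT replicate 2, the highest of its line, the value in 1-2 KO was 0.20 (adjusted p = 0.0307 in edgeR), and scaled by library size alone it was 0.18 (adjusted p = 0.0386). The knockouts differed by -0.14, with a 95% interval from -0.29 to 0.01 (adjusted p = 0.0982 in edgeR), and TET1 was called lower in 1-2 KO than in 1-1 KO without WT replicate 3 (-0.16, adjusted p = 0.0398).

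TET3 (ENSG00000187605, chromosome 2, 73984910 to 74108176, plus strand), the most abundant TET mRNA per length here, went the other way in 1-1 KO. It was at 65.0, 67.0 and 64.5 CPM in WT, at 59.0, 59.7 and 56.8 CPM in 1-1 KO and at 66.0, 72.4 and 72.8 CPM in 1-2 KO. The 1-1 KO libraries were below the others, whereas 1-2 KO overlapped with WT through its replicate 1. TET3 fell by 0.16 in 1-1 KO (1.12-fold, adjusted p = 0.00456 in edgeR). In 1-2 KO the log2 fold change was 0.10 (adjusted p = 0.0559 in edgeR), and without 1-2 KO replicate 1 it was 0.15 (adjusted p = 0.00525). TET3 was higher in 1-2 KO than in 1-1 KO by 0.27 (adjusted p = 7.97e-05 in edgeR).

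In the Polycomb complex, EZH2 (ENSG00000106462, chromosome 7, 148807257 to 148884321, minus strand), the subunit that methylates histone H3, was called in opposite directions in the knockouts. It was at 84.3, 86.2 and 83.9 CPM in WT, at 57.8, 57.1 and 57.0 CPM in 1-1 KO and at 100.3, 98.1 and 97.8 CPM in 1-2 KO. The libraries of each line lay close together and the lines were apart from each other. EZH2 fell by 0.57 on the log2 scale in 1-1 KO (1.48-fold, adjusted p = 2.89e-09 in edgeR, standard error 0.033) and rose by 0.22 in 1-2 KO (1.16-fold, adjusted p = 4.62e-05, standard error 0.032). The direct comparison, which does not use the WT libraries for its difference, gave 0.79 (1.72-fold, adjusted p = 6.43e-11 in edgeR, standard error 0.033). Leaving out any 1 library, this difference was between 0.76 and 0.79.

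The ratio of EZH2 to EZH1, its paralog of resting cells, was 6.14, 7.41 and 7.003 in WT, 6.54, 5.70 and 6.31 in 1-1 KO and 9.21, 8.40 and 8.75 in 1-2 KO. The 1-2 KO ratios were above all others. Their log2 difference was 0.36 from WT and 0.51 from 1-1 KO (exact permutation p = 0.1 for both, the smallest possible). In 1-1 KO the ratio overlapped with WT (log2 difference -0.15, exact permutation p = 0.3). EZH1 itself fell there, from 12.5 ± 1.13 to 9.30 ± 0.630 CPM (SD, n = 3 libraries, adjusted p = 3.66e-04 in edgeR).

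EED (ENSG00000074266, chromosome 11, 86201212 to 86278813, plus strand), which binds the methylated histone and stimulates the enzyme, was at 40.4, 40.5 and 40.2 CPM in WT. It was at 32.7, 32.8 and 33.7 CPM in 1-1 KO, below all other libraries, and at 37.3, 41.6 and 41.1 CPM in 1-2 KO, around WT. It fell by 0.29 in 1-1 KO (1.22-fold, adjusted p = 1.09e-04 in edgeR, standard error 0.048). In 1-2 KO the log2 fold change was -0.01, with a 95% interval from -0.12 to 0.09 (adjusted p = 0.836 in edgeR), and without 1-2 KO replicate 1 it was 0.04. EED was higher in 1-2 KO than in 1-1 KO by 0.28 (adjusted p = 1.46e-04 in edgeR).

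SUZ12 (ENSG00000178691, chromosome 17, 31937007 to 32001038, plus strand), the scaffold of the complex, had the smallest change of the 10 genes in 1-1 KO, whereas in 1-2 KO that of EED was smaller. SUZ12 was at 134.2, 143.7 and 134.5 CPM in WT, at 140.3, 138.4 and 143.2 CPM in 1-1 KO and at 126.2, 132.7 and 128.2 CPM in 1-2 KO. WT and 1-1 KO overlapped, and the 1-2 KO libraries were just below both. The log2 fold change was 0.03 in 1-1 KO, with a 95% interval from -0.05 to 0.11 (adjusted p = 0.459 in edgeR). In 1-2 KO it was -0.09 (adjusted p = 0.0505 in edgeR), and DESeq2's Wald test gave -0.10 (adjusted p = 0.0426). Without WT replicate 1 (-0.11), WT replicate 3 (-0.13) or 1-2 KO replicate 2 (-0.11), edgeR called it lower in 1-2 KO. Compared directly, SUZ12 was lower in 1-2 KO than in 1-1 KO by 0.12 (adjusted p = 0.00886 in edgeR). EZH2, EED and SUZ12 thus did not move together. In 1-1 KO, EZH2 and EED were down and SUZ12 was not called in edgeR. In 1-2 KO, EZH2 was up, while EED and SUZ12 were not called in edgeR's main fit.

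**Figure D2:**
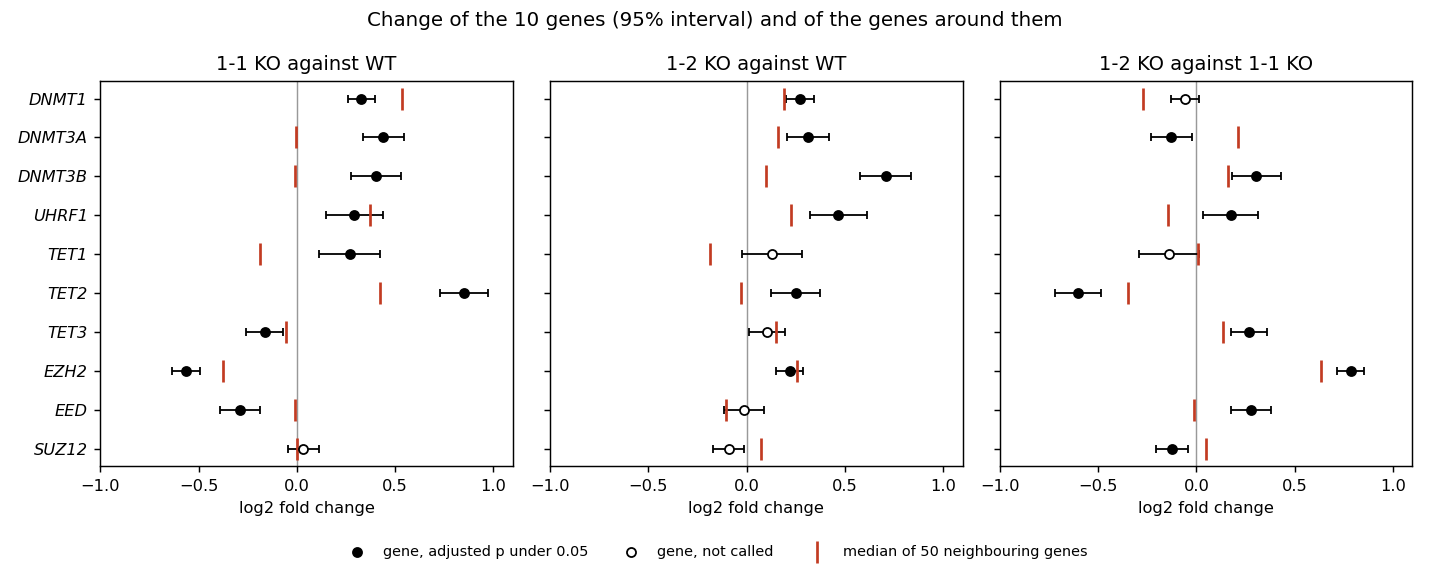
Log2 fold change of the 10 genes in the 3 comparisons (points, filled at an adjusted p under 0.05 in edgeR; bars are 95% intervals) and the median log2 fold change of the 50 neighbouring tested genes (vertical marks). For DNMT1 in 1-1 KO the gene (0.33) lies below its neighbours' median (0.54), while DNMT3A (0.44) and DNMT3B (0.40) have neighbours near 0.

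Several of the genes lie in chromosome segments in which the neighbouring genes moved the same way, and the median of the 50 nearest tested genes is given for each. DNMT1 and UHRF1 are both on chromosome 19, whose tested genes had a median log2 fold change of 0.33 in 1-1 KO and 0.14 in 1-2 KO. Around DNMT1, over 2.54 Mb, 38 of the 50 neighbours were higher and 2 lower in 1-1 KO, with a median of 0.54. Around UHRF1 the counts were 32 and 1, with a median of 0.38. Where a neighbours' median serves as an offset below, it is taken as fixed. Those p-values do not include the spread among the neighbours. With the neighbours' median as an offset, DNMT1 in 1-1 KO turned to -0.21 (adjusted p = 8.58e-05 in edgeR) and UHRF1 to -0.08 (adjusted p = 0.314), so that neither rose beyond the median of the genes around it there. In 1-2 KO, where the neighbours' medians were 0.19 and 0.22, DNMT1 came to 0.08 (adjusted p = 0.0520 in edgeR) and UHRF1 to 0.24.

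EZH2 had 28 neighbours lower and 2 higher in 1-1 KO (median -0.37) and 22 higher and 7 lower in 1-2 KO (median 0.26). Its own difference from the neighbours' median was -0.19 in 1-1 KO (adjusted p = 1.81e-04 in edgeR) and -0.04 in 1-2 KO (adjusted p = 0.339). In 1-1 KO, EZH2 (-0.57) was within the quartiles of its neighbours (-0.63 to -0.13), and 16 of the 50 lay below it. TET2 had 35 neighbours higher and 5 lower in 1-1 KO (median 0.42). It lay 0.43 above that median (adjusted p = 1.69e-05 in edgeR), with 39 of the 50 neighbours below it. The neighbours of DNMT3A and DNMT3B had medians of -0.004 and -0.01 in 1-1 KO and 0.16 and 0.10 in 1-2 KO. Beyond these medians, DNMT3A changed by 0.44 and 0.15 and DNMT3B by 0.41 and 0.61, and each was called in edgeR. In 1-1 KO, 40 of the 50 neighbours lay below DNMT3A and 41 below DNMT3B. In 1-2 KO, 44 lay below DNMT3B, whereas DNMT3A (0.31) was within the quartiles of its neighbours (-0.06 to 0.49). EED in 1-1 KO differed by -0.28 from its neighbours' median of -0.009 (adjusted p = 1.81e-04 in edgeR), while 12 of the 50 neighbours lay below it. TET1, whose neighbours had a median of -0.19 in both knockouts, was called higher with the offset in 1-2 KO as well (0.32), and SUZ12 in 1-2 KO was called lower (-0.16). The part that chromosome position has in these changes was not tested otherwise, as only RNA was measured.

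Other genes of the same machinery were described by lists, as counts and medians with no test of a list. They stand beside 32.5% of all tested genes higher and 30.9% lower in 1-1 KO, and 28.2% higher and 26.2% lower in 1-2 KO. Of 9 tested partners of PRC2, 3 rose and 1 fell in 1-1 KO, against 2 and 4 in 1-2 KO (medians 0.01 and -0.15). EPOP, which links PRC2 to elongin B and C, rose from 8.35 ± 1.01 CPM in WT to 12.3 ± 0.151 in 1-1 KO and 13.6 ± 0.985 in 1-2 KO (SD, n = 3 libraries). JARID2, a subunit that helps to direct PRC2 to its sites, rose from 17.3 ± 0.633 to 30.3 ± 1.26 CPM in 1-1 KO and fell to 14.3 ± 0.484 CPM in 1-2 KO (log2 fold changes 0.81 and -0.28, both called in edgeR). The median of its neighbours was 0.11 in 1-1 KO and -0.32 in 1-2 KO. Of 20 subunits of Polycomb repressive complex 1, 7 rose and 6 fell in 1-1 KO, against 9 and 5 in 1-2 KO (medians -0.03 and 0.07). PCGF2, one of the subunits that define variants of this complex, rose 1.88-fold and 2.40-fold, and CBX7, a reader of the Polycomb mark on histone H3, rose 1.47-fold and 2.25-fold from a low level of 1.51 ± 0.298 CPM (SD, n = 3 libraries). CBX2, a reader of the same family, rose from 50.7 ± 3.39 CPM in WT to 69.7 ± 1.25 in 1-1 KO and 88.7 ± 1.49 in 1-2 KO (SD, n = 3 libraries). Its log2 fold changes were 0.46 and 0.81, with its neighbours at medians of 0.39 and 0.22.

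Of a list of enzymes that oppose Polycomb marks and of their partners, 10 genes were tested. In 1-1 KO 3 rose and 4 fell (median -0.06), beside 32.5% and 30.9% of all tested genes, while 9 rose and 1 fell in 1-2 KO (median 0.21), beside 28.2% and 26.2%. Both numbers of genes that rose include ASXL3, which passed the filter on low counts only through 1-2 KO, where it is high. KDM6A, a demethylase of lysine 27 on histone H3, was at 107.9, 107.5 and 109.9 CPM in WT, at 68.6, 68.1 and 67.7 CPM in 1-1 KO and at 154.1, 170.3 and 163.8 CPM in 1-2 KO. It thus fell by 0.67 in 1-1 KO and rose by 0.59 in 1-2 KO (adjusted p = 2.88e-09 and 1.19e-08 in edgeR), while the median of its neighbours was -0.01 and 0.006. The demethylase KDM6A and the methylase EZH2 were therefore each lower in 1-1 KO and higher in 1-2 KO than in WT. ASXL3, whose family works with the deubiquitinase BAP1, had 0 counts in every WT library, 4, 4 and 3 in 1-1 KO and 264, 254 and 288 in 1-2 KO. With WT set to 3 counts per library, ASXL3 was at least 79.2-fold higher in 1-2 KO and at least 1.06-fold higher in 1-1 KO. NSD2, a methyltransferase for lysine 36 of histone H3, was the gene that fell in 1-2 KO, from 325.4 ± 7.92 to 273.1 ± 7.37 CPM, and it fell in 1-1 KO to 244.5 ± 4.26 CPM (SD, n = 3 libraries). Its log2 fold change was -0.25 in 1-2 KO, where its neighbours' median was -0.30, and -0.41 in 1-1 KO, where that median was -0.22.

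Of 15 tested partners and readers of DNA methylation, 5 rose and 6 fell in 1-1 KO, against 4 and 6 in 1-2 KO (medians -0.01 and -0.05). CDCA7, the activator of the remodeller HELLS, rose 1.73-fold and 1.22-fold, and TDG, which cuts out the products of the TET enzymes, fell 1.17-fold and 1.20-fold. On the log2 scale TDG changed by -0.229 and -0.265, with its neighbours at medians of -0.123 and -0.305. CDCA7 changed by 0.79 and 0.29, with its neighbours at medians of 0.39 and 0.21. ZBTB38, a protein that binds methylated DNA, rose from 66.2 ± 0.691 to 115.5 ± 0.757 CPM in 1-1 KO and fell to 60.0 ± 2.40 CPM in 1-2 KO (SD, n = 3 libraries). Its log2 fold changes were 0.80 and -0.14, both called in edgeR, with its neighbours at medians of 0.46 and 0.04. USP7, a deubiquitinase that acts on DNMT1 and UHRF1, fell by 0.23 in 1-1 KO and rose by 0.34 in 1-2 KO on the log2 scale. Of 14 factors of silencing by lysine 9 of histone H3, 2 rose and 7 fell in 1-1 KO, against 6 and 4 in 1-2 KO (medians -0.08 and 0.03). SETDB1, a methyltransferase of this mark, fell from 53.2 ± 1.84 to 30.9 ± 1.07 CPM in 1-1 KO and 38.7 ± 2.15 CPM in 1-2 KO (SD, n = 3 libraries), with its 50 neighbours at medians of -0.60 and -0.24. PPHLN1, a subunit of the HUSH complex, fell 1.22-fold and 1.18-fold.

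Of 16 enzymes of the methyl donor cycle and of the TET cofactor, 6 rose and 4 fell in 1-1 KO, against 7 and 4 in 1-2 KO (medians -0.03 and 0.11). MTR, the methionine synthase, rose 1.19-fold and 1.31-fold, and NNMT, which uses up methyl groups, fell 1.20-fold and 1.53-fold from 3.74 ± 0.222 CPM (SD, n = 3 libraries). IDH1, a source of 2-oxoglutarate in the cytosol, rose from 458.0 ± 10.6 to 724.9 ± 5.03 CPM in 1-1 KO and fell to 391.6 ± 13.5 CPM in 1-2 KO (SD, n = 3 libraries). In 1-1 KO the log2 fold change of IDH1 was 0.66, with its neighbours at a median of 0.32. SHMT2, of the mitochondrial one-carbon pathway, went the opposite way, down by 0.22 in 1-1 KO and up by 0.32 in 1-2 KO on the log2 scale. Since DNMT1, UHRF1 and EZH2 belong to dividing cells, S-phase and proliferation genes were counted beside them. Of 22 tested, 13 rose and 6 fell in 1-1 KO, beside 32.5% and 30.9% of all tested genes. In 1-2 KO 5 rose and 8 fell, beside 28.2% and 26.2% (medians 0.20 in 1-1 KO and -0.05 in 1-2 KO). MKI67 fell from 238.5 ± 3.71 CPM in WT to 170.5 ± 2.61 in 1-1 KO and 173.2 ± 7.95 in 1-2 KO, and CDK1 fell 1.37-fold and 1.43-fold (SD, n = 3 libraries). TYMS, an enzyme of thymidine synthesis, rose 1.41-fold and 1.22-fold. The part of cell division in the changes of DNMT1, UHRF1 and EZH2 was not tested.

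Germline genes that DNA methylation is known to keep silent in body cells were mostly silent in all lines. Of 30 on the list, 7 were tested. In 1-1 KO 3 rose and 1 fell, beside 32.5% and 30.9% of all tested genes. In 1-2 KO 2 rose and 3 fell, beside 28.2% and 26.2%. MAGEB2, a cancer-testis antigen, was at 7.19, 5.71 and 6.25 CPM in WT, at 38.4, 37.2 and 36.2 CPM in 1-1 KO and at 36.9, 37.2 and 37.0 CPM in 1-2 KO. It was expressed in WT before it rose 5.82-fold and 5.80-fold (adjusted p = 1.62e-12 and 1.91e-12 in edgeR). MAGEC2, of the same class, fell from 4.69 ± 0.410 CPM in WT to 0.0800 ± 0.0351 in 1-1 KO, where its libraries had 5, 3 and 2 counts, and to 0.424 ± 0.0848 in 1-2 KO (SD, n = 3 libraries). TEX19 rose from 0.434 ± 0.0383 CPM to 1.43 ± 0.165 in 1-1 KO and 0.919 ± 0.117 in 1-2 KO (SD, n = 3 libraries). PIWIL2, a protein of the piRNA pathway, and BRDT, a testis bromodomain protein, fell 2.39-fold and 1.58-fold in 1-2 KO and were not called in 1-1 KO (log2 fold changes -0.20 and -0.005).

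Of all genes in the table, 40394 had 3 counts or fewer in every WT library. Of these, 12 (0.0297%) had at least 10 counts in every library and a mean of at least 1 CPM in 1-1 KO, and 56 (0.139%) in 1-2 KO. In the other direction, 11 of 39541 genes silent in 1-1 KO and 1 of 39344 genes silent in 1-2 KO were on in WT. Of the 21 germline genes silent in WT, 0 were on in 1-1 KO and 0 in 1-2 KO. A CpG-rich promoter, with over 50% GC and an observed to expected CpG over 0.6, was held by 29.4% of the 5862 genes silent in WT that had a promoter sequence, by 4 of 9 genes on in 1-1 KO and by 28 of 41 genes on in 1-2 KO (68.3%). By the same measure, 62.7% of all 18000 promoters and 81.1% of those of tested genes were CpG-rich. These counts are descriptions of 3 lines, no methylation or histone mark was measured, and their relation to the 10 genes was not tested.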

How the data were processed

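Per the paper's methods and the submitters' processing notes, the authors aligned paired reads of stranded mRNA libraries to GRCh38 with STAR and obtained gene counts from featureCounts. Versions of these tools are not given in the sources used here, nor is it stated whether strand or shared reads were considered. The deposited table holds these read counts as they are, with no normalization or filter, for 3 libraries per line. Symbols and positions came from GENCODE 44, which held 60463 of the 60664 identifiers.

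Counts were tested in R 4.3.3 with edgeR 4.0.16 (filterByExpr at a minimum count of 10 and total of 15, TMM, quasi-likelihood test, all 9 libraries in 1 fit with a term per line), and p-values were adjusted by Benjamini-Hochberg over the 17207 tested genes, with a threshold of 0.05. The methods of the study name DESeq2, and DESeq2 1.42.0 was run beside it. CPM use TMM-scaled library sizes. Fold changes below 1 are given as folds lower. Floors of 3 counts cover counting error only. The common biological coefficient of variation was 5.55%. Ratios within libraries were compared by exact two-sided permutation tests in Python 3.11.15 with scipy 1.17.1. The edgeR steps were tested on simulated data. Promoters were RefSeq sequences on GRCh38.p14.

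Alternatives were DESeq2's size factors, library size alone, no filter, at least 10 counts in every library, only the 2 groups compared, a replicate block, an adjusted p under 0.01, the median of 50 neighbouring genes as an offset, and each library left out in turn. Lengths of joined exons were an added alternative.

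All 10 genes are named. Of each list, the 2 genes called the same way in both knockouts with the largest smaller change and the gene with the smallest adjusted p per knockout are named, and of the germline list every called gene that reached a mean of 1 CPM in a line. EZH1 is named as the partner in a ratio. The genes, lists and tests were chosen with earlier results of these data known. A further marker of the hepatocyte list is not reported here.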

Additional observations from a re-analysis of the deposited data

Results flagged for a closer look

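EZH2 was called lower in 1-1 KO and higher in 1-2 KO than in WT, and the test of the difference itself, 1-2 KO against 1-1 KO in edgeR, gave 0.785 on the log2 scale (adjusted p = 6.43e-11). Its 3 libraries were at 57.0 to 57.8 CPM in 1-1 KO, 83.9 to 86.2 in WT and 97.8 to 100.3 in 1-2 KO. The 50 neighbouring genes had medians of -0.37 in 1-1 KO and 0.26 in 1-2 KO. With these medians as a fixed offset, EZH2 was called lower in 1-1 KO (-0.19) and was not called in 1-2 KO (-0.04). In 1-1 KO it was within the quartiles of its neighbours (-0.63 to -0.13), a spread that the test with the offset leaves out.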

How the results depend on the processing

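The numbers of genes called higher in either knockout than in WT, and lower in 1-1 KO, stayed within 1.5 times their values under each alternative. The number lower in 1-2 KO than in WT was 1 in place of 0 (SUZ12) with DESeq2's size factors, with at least 10 counts in every library, with only the 2 groups compared, with the neighbours' offset and with DESeq2's Wald test. The number lower in 1-2 KO than in 1-1 KO was 5 in place of 3 with only the 2 groups compared (DNMT1 and TET1 added). With each library left out in turn, these numbers were 0 to 1 and 2 to 5. The neighbours' offset, run against WT only, reversed DNMT1 (-0.207) and UHRF1 (-0.0821) in 1-1 KO and TET3 (-0.0478), EZH2 (-0.0385) and EED (0.0908) in 1-2 KO. It also took DNMT1 in 1-2 KO out of the calls (adjusted p = 0.052 in edgeR) and brought TET1 in (0.316 on the log2 scale). Library size alone reversed EED in 1-2 KO (0.0418) and added TET1 and TET3 to the calls. EED lay between -0.0415 and 0.0352 with each library left out. Between the knockouts, the calls of UHRF1 and DNMT3A were lost at an adjusted p threshold of 0.01. That of UHRF1 was also lost with at least 10 counts in every library, with only the 2 groups and without WT replicate 3, 1-1 KO replicate 1 or 2 or 1-2 KO replicate 1 (0.0932 to 0.153), and that of DNMT3A with DESeq2's Wald test and without 1-1 KO replicate 2 or 3 or 1-2 KO replicate 2 or 3 (-0.12 to -0.108). Replicate numbers did not pair the libraries, as same-numbered deviations correlated between -0.19 and 0.05. With the replicate block, UHRF1 stood at 0.17 between the knockouts (adjusted p = 0.0517 in edgeR), and no other call changed. The causes of these changes were not tested. With 3 libraries per line an exact test cannot go below p = 0.1, and no DNA or histone mark was measured.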
